A study of Mus musculus with 6 samples.

Results

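The 10 genes described here encode the proteins that make microRNAs and put them to work. They are Drosha, Dgcr8, Xpo5, Dicer1, Tarbp2, Prkra, Ago1, Ago2, Ago3 and Tnrc6a, taken by symbol from a table of 24794 genes, and each symbol matched 1 row. All 10 passed the filter on low counts, which left 13779 genes for testing. The libraries are polyadenylated RNA of LLC cells, the mouse Lewis lung carcinoma line. Cells of 3 libraries were transfected with mimics of miR-291-3, which the series' design text calls miR-291a-3p, and cells of the other 3 with control mimics. The labels give no dose, no time after transfection and no untransfected cells. Whether replicate libraries stem from independent cultures is not stated either, and each p-value below reflects spread among libraries that could be purely technical.

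A microRNA starts as a hairpin in a long nuclear transcript. Drosha and its partner DGCR8 cut the hairpin out, exportin-5 carries it to the cytoplasm, and Dicer, with the partners TRBP (Tarbp2) or PACT (Prkra), trims it to a short duplex. An Argonaute protein keeps 1 strand as a guide to target mRNAs, and a TNRC6 protein bound to Argonaute recruits the enzymes that shorten the poly(A) tail. A mimic is a synthetic duplex that resembles the product of Dicer, so it enters this path at the Argonaute step. Polyadenylated RNA shows the mRNAs of the machinery and not the mature microRNAs.

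The sequences below show the part of the microRNA that reads its targets, with the seed, bases 2 to 8, in capitals. They are RefSeq's mature mouse sequences (GRCm38.p6). miR-291a-3p, miR-294-3p and miR-302b-3p share a seed, and miR-17-5p holds the same bases shifted by 1.
miR-291a-3p: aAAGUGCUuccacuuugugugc
miR-294-3p: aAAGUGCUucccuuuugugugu
miR-302b-3p: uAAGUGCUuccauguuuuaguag
miR-17-5p: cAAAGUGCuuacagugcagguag

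The mimic libraries held 25376993 to 29058948 counts and the control libraries 28318155 to 32963986. Values in CPM (counts scaled by library size) are scaled with edgeR's TMM factors, and a gene is called where the Benjamini-Hochberg adjusted p of edgeR's quasi-likelihood test is under 0.05. Of the markers of cell identity, the keratin gene Krt8 had 534 to 549 CPM in mimic and 496 to 510 CPM in control libraries by total counts, and the mesenchymal gene Vim 1828 to 1856 and 2090 to 2111 CPM. In the edgeR fit Krt8 and Krt18 rose (log2 changes 0.16 and 0.90), while Vim, Fn1 and Zeb1 fell (-0.14, -0.83 and -0.28). Col1a1, which did not pass the filter, had 22, 104 and 3 counts in mimic libraries and 2, 1 and 5 in control libraries, with mimic library 2 apart. The defining epithelial genes Epcam and Cdh1 had under 10 counts in every library. So did the lung epithelial gene Sftpb, 1 of only 2 with a row among 5 listed. The other, Ager, had 47, 31 and 48 counts in mimic and 59, 31 and 42 in control libraries. Ager was tested and did not pass (log2 change 0.13, adjusted p = 0.687, edgeR). Summed levels of markers are also by total counts. That of the 4 epithelial markers with a row, of 5 listed, was 538 to 553 CPM in mimic and 498 to 513 CPM in control libraries. That of the 4 mesenchymal markers, most of it Vim, was 1917 to 1950 and 2237 to 2266 CPM. Of 5 leukocyte markers 4 had a row. Their summed level by total counts was 2.51 to 3.11 CPM in mimic and 4.67 to 7.77 CPM in control libraries. Ptprc and Adgre1 had under 10 counts in every library. The part of these marker levels in the results was not tested.

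Prkra and Ago1 fell in the mimic libraries, and Tarbp2, Dicer1, Tnrc6a, Xpo5 and Drosha rose. Prkra fell by 48.6% and Ago1 by 19.4%, and the largest rise, that of Tarbp2, was 1.18-fold. Dgcr8, Ago2 and Ago3 did not pass. With 5 risen, 2 fallen and 3 not passed, 7 of 10 genes were called, where 49.1% of all genes tested were called, 24.3% risen and 24.8% fallen. The median log2 change of the 10 genes was 0.04, beside -0.01 for all genes tested. In 6 of 10 the mimic libraries lay entirely above (4) or entirely below (2) the control libraries, against 54.9% of all genes tested, 27% above and 27.9% below. So many genes were called in these libraries that the counts single out nothing about the 10, and the description below is of single genes. With total counts in place of TMM 3 rose and 3 fell (17% and 32.3% of all genes), and with limma on log2(FPKM + 1) or log2(FPKM + 0.1) 1 rose and 2 fell (16.9% of all genes risen with either, 25.5% and 25.4% fallen).

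**Figure D1:**
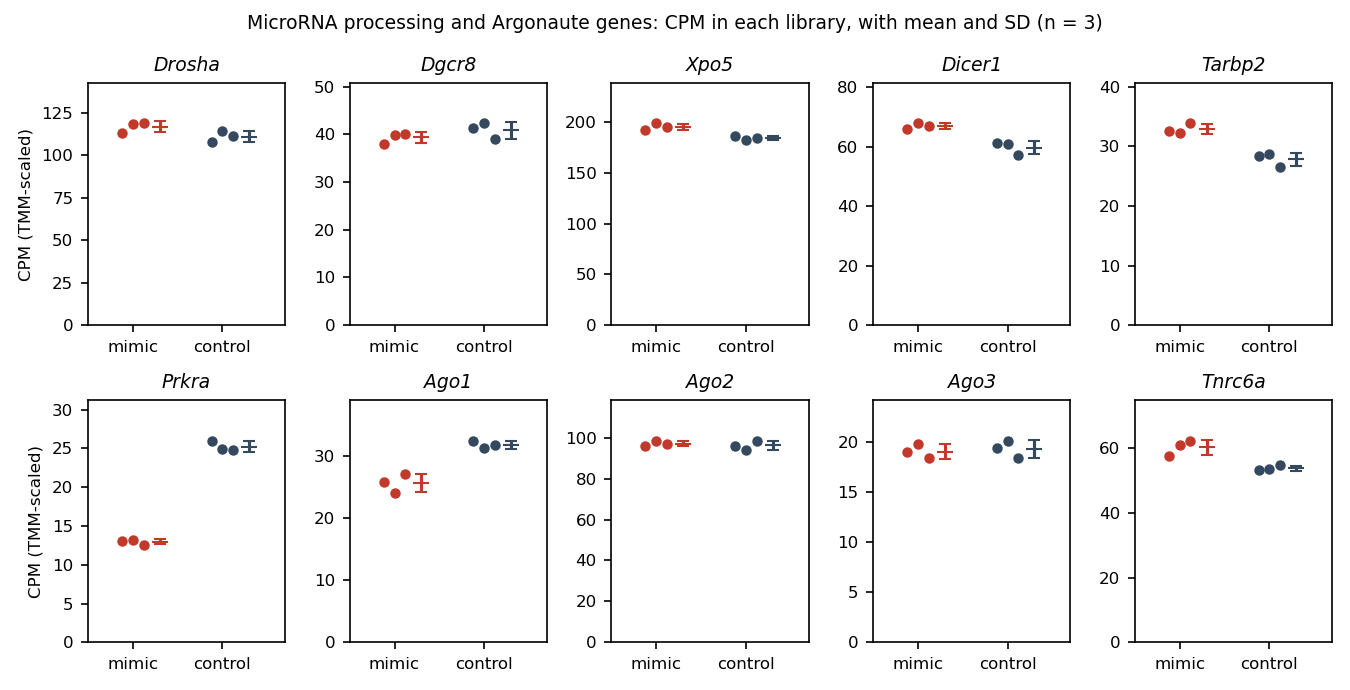
CPM of each of the 10 genes (vertical axes from 0) in the 3 mimic libraries (left, red) and the 3 control libraries (right, dark), with the mean and SD beside the points. Prkra and Ago1 lie lower in the mimic libraries, Tarbp2, Dicer1, Tnrc6a and Xpo5 higher, and the groups overlap for Drosha, Dgcr8, Ago2 and Ago3.

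Of the genes of the nuclear steps, Drosha and Dgcr8, which encode the Microprocessor, changed by 5.27% or less under TMM. Drosha, the ribonuclease III that frees the hairpin, had 113, 118 and 119 CPM in mimic libraries, against 108, 114 and 111 CPM in control libraries. The groups overlap. The log2 change was 0.07 ± 0.03 (SE; adjusted p = 0.0297, edgeR). That call was lost in 8 of 14 alternatives, with total counts only (log2 change 0.02, adjusted p = 0.639), with DESeq2 (adjusted p = 0.0687), with limma on FPKM values (adjusted p = 0.411 and 0.408), and without mimic library 2 (0.101), mimic library 3 (0.0994), control library 1 (0.163) or control library 3 (0.056).

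Dgcr8, the RNA-binding partner that positions Drosha on the hairpin, had 38.1, 40.0 and 40.1 CPM in mimic libraries and 41.4, 42.3 and 38.9 CPM in control libraries. Its log2 change was -0.05 with a 95% interval from -0.14 to 0.03 (adjusted p = 0.334, edgeR). With total counts only it was -0.11 and passed (adjusted p = 0.0326). The Dgcr8 to Drosha ratio of FPKM, the deposited values per length and depth, averaged 0.26 in mimic and 0.284 in control libraries, taken from the mean log2 ratios of -1.94 ± 0.00 and -1.82 ± 0.07 (SD, n = 3 each). The ratios of the groups did not overlap, and the difference of -0.13 had the smallest p that an exact two-sided permutation test of 3 against 3 can give, 0.1. Over the 7 shares and ratios tested in this way the adjusted p was 0.14. In GENCODE M21 the span of Dgcr8, introns included, shares 825 bases with that of Trmt2a on the opposite strand. On the same strand it shares 4374 bases with the span of Gm49776, a protein-coding model with a log2 change of -0.16 that did not pass. Whether exons overlap, so that reads could be split between these genes, was not examined. The authors' strand setting is not given in the sources used here.

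Xpo5, the export receptor of the precursor hairpin, had 192, 199 and 195 CPM in mimic libraries and 187, 182 and 185 CPM in control libraries. Every mimic library lay above every control library. The log2 change was 0.08 ± 0.02 (SE; adjusted p = 0.00319, edgeR), and with total counts only it was 0.03 and did not pass (adjusted p = 0.36). With limma on FPKM values it did not pass either (adjusted p = 0.178 and 0.179).

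Of the genes of the cytoplasmic Dicer step, Dicer1 and Tarbp2 rose while Prkra fell. Dicer1, the ribonuclease III that removes the loop of the hairpin, had 65.9, 67.9 and 66.8 CPM in mimic libraries, against 61.2, 60.9 and 57.2 CPM in control libraries. Every mimic library was above every control library, and the rise was 1.12-fold (log2 change 0.16 ± 0.03 SE, adjusted p = 0.000181, edgeR). With limma on FPKM values the adjusted p was 0.0799 and 0.0805, for pseudocounts of 1 and 0.1.

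Tarbp2, which encodes the double-stranded RNA-binding protein TRBP, had 32.6, 32.2 and 33.8 CPM in mimic libraries and 28.3, 28.6 and 26.6 CPM in control libraries. The groups did not overlap. It rose 1.18-fold, the most of the 10 genes (log2 change 0.24 ± 0.05 SE, adjusted p = 6.56e-05, edgeR), and 12.9% of all genes tested had a log2 change at least as high. The call held in all 14 alternatives.

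Prkra encodes PACT, a relative of TRBP that binds Dicer and is also known as an activator of the kinase PKR. It had 13.1, 13.2 and 12.6 CPM in mimic libraries, against 26.00, 24.97 and 24.74 CPM in control libraries. The highest mimic library lay well below the lowest control library. In bulk RNA, fewer cells expressing a gene and less of its RNA per cell cannot be told apart. The means were 12.97 ± 0.314 and 25.2 ± 0.669 CPM (SD, n = 3 each), and the log2 change was -0.96 ± 0.06 (SE), with a 95% interval from -1.08 to -0.84 (adjusted p = 1.08e-14, edgeR). Only 1.47% of all genes tested had a log2 change as low or lower. Leaving out any single library gave log2 changes between -0.98 and -0.93, and the call held in all 14 alternatives. The gene (ENSMUSG00000002731.7) lies on the minus strand of chromosome 2, chr2:76629898-76648015 on GRCm38, and GENCODE M21 has no other gene overlapping it.

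**Figure D2:**
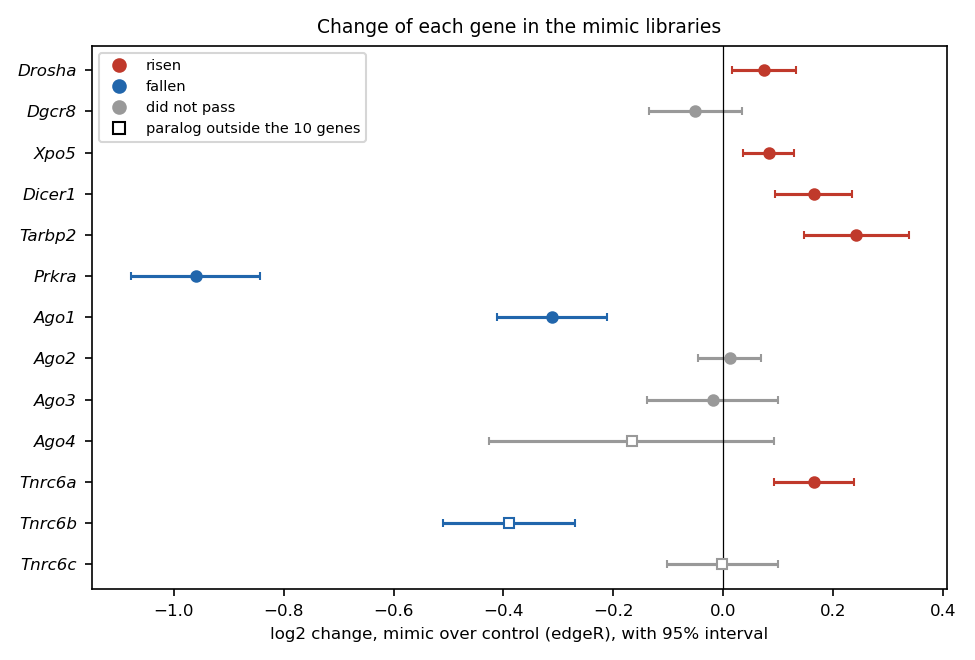
Log2 change (mimic over control, edgeR) of the 10 genes (circles) and of 3 paralogs outside them (open squares), with 95% intervals on the horizontal axis and colours for the call. Prkra stands at -0.96, Tnrc6b at -0.39 and Ago1 at -0.31, and the other genes lie between -0.17 and 0.24.

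Per length, the mix of Dicer's partners was different in the mimic libraries. Prkra had 5.59, 5.69 and 5.33 FPKM in mimic libraries and 11.36, 10.98 and 10.79 FPKM in control libraries. Tarbp2 had 6.19, 6.20 and 6.37 FPKM in mimic libraries and 5.51, 5.61 and 5.17 FPKM in control libraries. In FPKM, Prkra was thus below Tarbp2 in each mimic library and above it in each control library. In CPM Prkra was below Tarbp2 in the control libraries too, with 26.00, 24.97 and 24.74 against 28.3, 28.6 and 26.6 CPM. The order in control libraries thus depends on the lengths that FPKM assigns, 2.31 kb for Prkra and 5.19 kb for Tarbp2. In GENCODE M21 the coding sequence and 3' UTR have 939 and 513 bases for Prkra, and 1095 and 334 bases for Tarbp2. Without the 5' UTR these annotated lengths are close to each other. The order and the share in FPKM therefore hold only for the assigned lengths. The share of Prkra in the FPKM of both was 47.0% ± 1.23 in mimic and 67.0% ± 0.756 in control libraries (SD, n = 3 each), a difference of -20.1 percentage points (exact permutation p = 0.1, two-sided, the smallest possible). That share was chosen after the values were seen, and its difference was -19.2 points with CPM. The summed FPKM of both partners was 3.41 times that of Dicer1 in mimic libraries and 5.21 times in control libraries, from mean log2 ratios of 1.77 ± 0.02 and 2.38 ± 0.02 (SD, n = 3 each), again without overlap (exact permutation p = 0.1, adjusted p = 0.14 over the 7 shares and ratios). The log2 difference of -0.61 was -0.37 with CPM, which gives Tarbp2, the gene assigned the longer length, more weight. Both ratios to Dicer1 rest on the assigned lengths too.

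Among the Argonautes, Ago1 fell and neither Ago2 nor Ago3 passed. Ago1 had 25.7, 24.0 and 27.0 CPM in mimic libraries and 32.4, 31.2 and 31.7 CPM in control libraries. All 3 mimic libraries lay below all 3 control libraries. The log2 change was -0.31 ± 0.05 (SE), with a 95% interval from -0.41 to -0.21 (adjusted p = 3.23e-06, edgeR), and the call held in all 14 alternatives. Of all genes tested, 15.1% had a log2 change as low or lower.

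Ago2, the Argonaute with slicing activity, had 95.7, 98.2 and 96.9 CPM in mimic libraries and 95.9, 94.0 and 98.5 CPM in control libraries. These ranges overlap. The log2 change of 0.01 had a 95% interval from -0.05 to 0.07 (adjusted p = 0.776, edgeR) under TMM. The change was -0.05 with total counts only (adjusted p = 0.192, edgeR). The span of Ago2, introns included, shares 1711 bases with that of Chrac1 on the opposite strand.

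Ago3 had 18.97, 19.80 and 18.37 CPM in mimic libraries and 19.46, 20.15 and 18.38 CPM in control libraries, also overlapping. Its log2 change was -0.02, with a 95% interval from -0.14 to 0.10 (adjusted p = 0.814, edgeR). Ago4, the remaining paralog, had 3.69, 3.11 and 3.44 CPM in mimic libraries and 3.85, 3.85 and 3.78 CPM in control libraries. Its mimic libraries lay below its control libraries, but the log2 change of -0.17 did not pass (95% interval -0.43 to 0.09, adjusted p = 0.295, edgeR).

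Ago3, Ago1 and Ago4 stand in a row on the minus strand of chromosome 4, 5455 and 20957 bases apart on GRCm38. Of these neighbours Ago1 alone was called. Per length, Ago2 made up 59.1% ± 1.10 of the summed Argonaute FPKM in mimic libraries and 54.9% ± 0.800 in control libraries (SD, n = 3 each). The share of Ago1 was 26.9% ± 1.32 in mimic and 31.3% ± 0.409 in control libraries. Neither share overlapped between the groups (exact permutation p = 0.1, adjusted p = 0.14). The shares of Ago3, 9.84% and 9.34%, and of Ago4, 4.18% and 4.397%, overlapped between mimic and control libraries (exact permutation p = 0.4 for each).

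**Figure D3:**
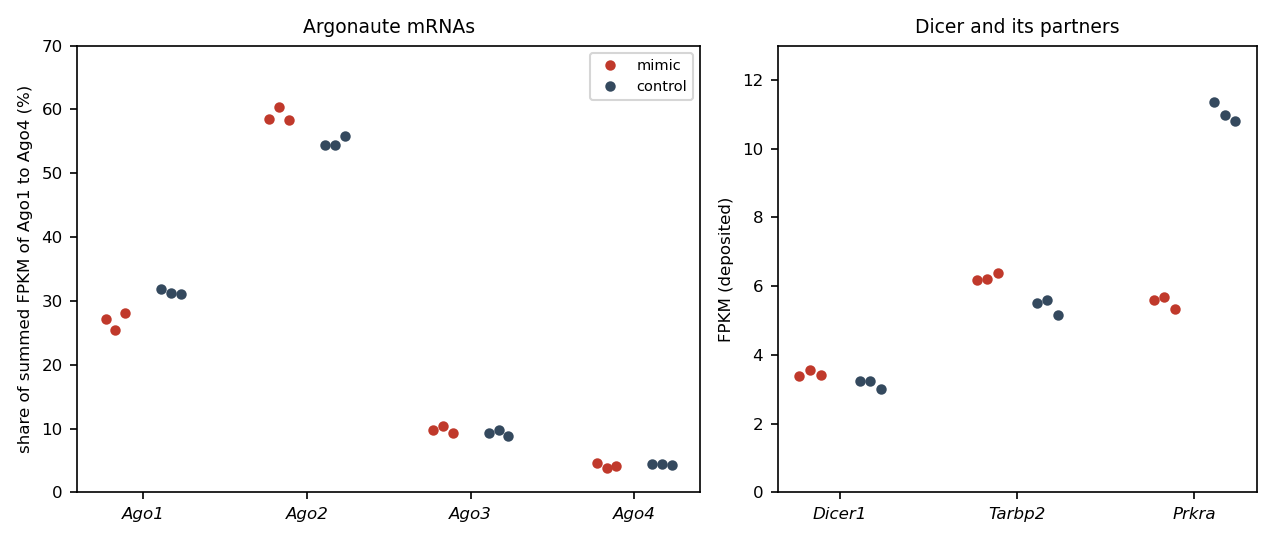
Left, share of each Argonaute mRNA in the summed FPKM of Ago1 to Ago4 (percent) in the 3 mimic (red) and 3 control (dark) libraries. Right, deposited FPKM of Dicer1, Tarbp2 and Prkra in the same libraries. The share of Ago1 is lower and that of Ago2 higher in the mimic libraries. In FPKM, Prkra lies below Tarbp2 in mimic and above it in control libraries, whereas in CPM it lies below in both.

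Tnrc6a, which encodes the Argonaute-binding scaffold GW182, had 57.7, 60.9 and 62.3 CPM in mimic libraries and 53.1, 53.6 and 54.7 CPM in control libraries. The groups did not overlap, and the rise was 1.12-fold (log2 change 0.17 ± 0.04 SE, adjusted p = 0.00026, edgeR). With limma on FPKM values it did not pass (adjusted p = 0.0599 and 0.0585). In GENCODE M21 the long noncoding Gm45846 shares 45794 bases of the gene's span on the same strand. The Tnrc6a paralog Tnrc6b fell, with 16.3, 15.4 and 16.9 CPM in mimic libraries and 21.8, 20.3 and 21.4 CPM in control libraries (log2 change -0.39 ± 0.06 SE, adjusted p = 1.78e-06, edgeR). Tnrc6c had 34.7, 34.3 and 36.8 CPM in mimic libraries, within the range of the control libraries, 32.5, 35.2 and 38.0 CPM. The 3 paralogs thus differ in their calls, with 1 risen, 1 fallen and 1 not passed. The summed FPKM of Tnrc6a, Tnrc6b and Tnrc6c was 0.698 of that of Ago1 to Ago4 in mimic libraries and 0.631 in control libraries, a log2 difference of 0.15 between groups that did not overlap (exact permutation p = 0.1, adjusted p = 0.14). It was 0.08 with CPM and 0.25 for Tnrc6a over Ago1 to Ago3.

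Levels of different genes can be set side by side only per length. In the mimic libraries the order by mean FPKM was Xpo5 (24.6), Drosha (17.05), Tarbp2 (6.25), Ago2 (5.98), Prkra (5.54), Dgcr8 (4.43), Tnrc6a (4.11), Dicer1 (3.46), Ago1 (2.73) and Ago3 (0.997). In the control libraries it was Xpo5 (23.9), Drosha (16.6), Prkra (11.04), Ago2 (6.08), Tarbp2 (5.43), Dgcr8 (4.71), Tnrc6a (3.76), Ago1 (3.47), Dicer1 (3.16) and Ago3 (1.03). Neighbours in either order did not overlap between their 3 libraries. The order rests on the authors' gene lengths, which the ratio of counts to FPKM puts at 2.31 kb for Prkra, 5.19 kb for Tarbp2, 18.9 kb for Ago3 and 19.1 kb for Dicer1. A gene whose cells use a shorter transcript than that would be listed too low. In GENCODE M21 the coding sequence and 3' UTR have 1095 and 334 bases for Tarbp2, and 5718 and 3851 bases for Dicer1. Both are well short of the assigned lengths, so the places of these genes in the order are not firm.

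Matches to the miR-291a-3p seed, the bases shown above, were set beside the changes. Sites were sought in the longest annotated 3' UTR of GENCODE M21 on GRCm38, which is not the GRCm39 build named in the submitters' processing notes. A 7-base or 8-base match was found in Ago1, Ago3 and Dicer1, 3 of 10 genes, beside 20.9% of all 11559 genes with a 3' UTR. Of these 3 genes 1 fell, 1 rose and 1 did not pass. Of all 2421 genes with such a match 935 fell, 439 rose and 1047 did not pass. Prkra, which fell most, has none in its 3' UTR of 513 bases, nor in its coding sequence, where a match to 6 bases is the best.

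The sites are shown because they set the gene with the strongest matches, by class of match alone, beside genes with weaker ones. Repeat sequence was not screened in any 3' UTR. The other site of Tnrc6b and the site of Tnrc6c are not printed. Capitals mark the bases that pair with the seed or stand opposite the first base of the microRNA, in mRNA sense, 5′ to 3′. An 8mer is AGCACTTA, a 7mer-m8 its first 7 bases and a 7mer-A1 its last 7.
Ago3, 8mer, chr4:126338311-126338318: actttaattgcAGCACTTAagaggcagagg
Ago3, 8mer, chr4:126335515-126335522: caaatgttaagAGCACTTAttgtgctgtca
Ago3, 7mer-m8, chr4:126341692-126341698: caggcggtgtgAGCACTTggagcccagcc
Ago1, 7mer-A1, chr4:126438818-126438824: aaggcactatgGCACTTAgctctgaggtg
Ago1, 7mer-A1, chr4:126435304-126435310: tgtatgatgttGCACTTAgcagccatgtg
Dicer1, 7mer-A1, chr12:104690165-104690171: catgtaatgctGCACTTAggttcaagtca
Tnrc6b, 7mer-m8, chr15:80931328-80931334: gggaacatgctAGCACTTgtgtgatatcc

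All of these lie in 3' UTR exons, those of Ago3, Ago1 and Dicer1 on the minus strand and that of Tnrc6b on the plus strand. Ago3, with 2 8mers among 3 sites, had a log2 change of -0.02, while Ago1, with 2 of the weaker 7mer-A1 sites, had -0.31. The 8mers of Ago3 start at bases 7156 and 9952 of a 3' UTR of 12742 bases, and its 7mer-m8 at base 3776. The sites of Ago1 start at bases 679 and 4193 of 4491. The part of site position in the changes was not tested. Dicer1 holds 1 7mer-A1 site, at base 1422 of 3851, and rose. Tnrc6b holds 2 sites and fell, and Tnrc6c holds 1 and did not pass. Over all genes tested with a 3' UTR, the median log2 change was -0.13 for those whose best site was an 8mer (416 genes), -0.06 for a 7mer-m8 (1632), -0.05 for a 7mer-A1 (373) and 0.02 for none (7698). Of the genes with an 8mer 49.3% fell, against 23.6% of those with none. The classes were not matched for the length of the 3' UTR. By that length Ago3, Ago1 and Dicer1 stand at percentiles 99.9, 94.2 and 91.1 of all genes with a 3' UTR. Of the other pathway genes, 21 of 87 with a 3' UTR hold a site of 7 or 8 bases. Of these 9 rose, 5 fell and 7 did not pass, beside 439, 935 and 1047 of all 2421 genes with such a site. A match is a description of these letters, and binding was not measured.

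**Figure D4:**
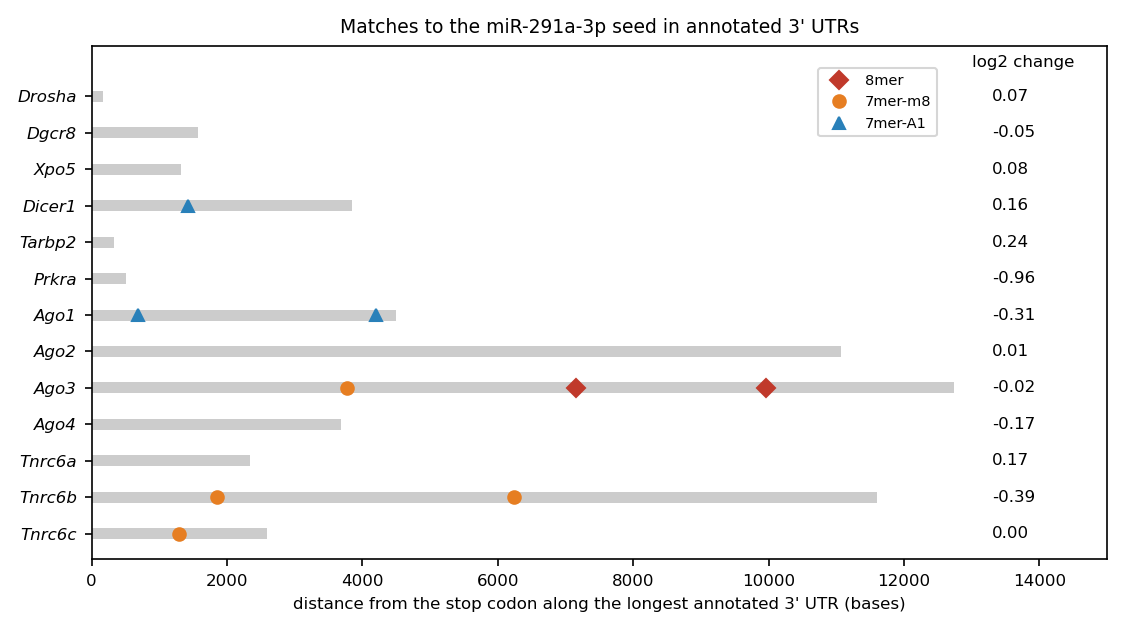
Longest annotated 3' UTR of each of the 10 genes and 3 paralogs (grey bars, bases from the stop codon) with matches to the miR-291a-3p seed as diamonds (8mer), circles (7mer-m8) and triangles (7mer-A1), and the log2 change at the right. Prkra, at -0.96, carries no mark, and Ago3, at -0.02, carries 3.

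The genes whose profile over the 6 libraries was nearest to that of Prkra were Samd9l, Tap2 and Sspn. Their Euclidean distances from Prkra, on log2(CPM + 0.5) values centred on each gene's mean, were 0.109, 0.114 and 0.121. Samd9l averaged 5.23 CPM in mimic and 10.5 CPM in control libraries, Tap2, a peptide transporter subunit, 18.6 and 35.7 CPM, and Sspn, a membrane protein of the dystrophin complex, 5.72 and 11.8 CPM. The distance is a description over 6 libraries.

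Other genes that act on the same path were taken from 7 lists. Of 91 tested, 46 rose, 18 fell and 27 did not pass, with a median log2 change of 0.08, beside 24.3% risen, 24.8% fallen and a median of -0.01 over all genes tested. With total counts only, 29 rose and 29 fell, beside 17% and 32.3% of all genes, and that scaling moved the median log2 change of all genes to -0.06.

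All 5 genes of the Ran cycle and of nuclear export rose, also with total counts only, beside 24.3% and 17% of all genes. Ranbp1, a cofactor of Ran, had 564 ± 12.999 CPM in mimic and 480 ± 8.05 CPM in control libraries (SD, n = 3 each; log2 change 0.23). Rcc1, the exchange factor that charges Ran with GTP, and the protein export receptor gene Xpo1 had log2 changes of 0.15 and 0.13. Of 13 chaperones of Argonaute loading 11 rose and 1 fell, beside 24.3% and 24.8% of all genes. With total counts only 8 rose and 1 fell, beside 17% and 32.3%. Ptges3, the HSP90 cochaperone p23, had 683 ± 18.8 CPM in mimic and 561 ± 18.7 CPM in control libraries (log2 change 0.28), and Hsp90aa1 and Hspa4 had log2 changes of 0.23 and 0.21. The fall of Fkbp5 (log2 change -0.09) was lost with DESeq2 (adjusted p = 0.105) and, in edgeR, without mimic library 2 (0.0663), mimic library 3 (0.0705) or control library 1 (log2 change -0.05, adjusted p = 0.191).

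Of 11 nuclear processing cofactors 7 rose and 1 fell (24.3% and 24.8% of all genes). With total counts only 4 rose and 4 fell (17% and 32.3%), so that the share fallen was near that of all genes. Hnrnpa1, an RNA-binding protein known to bind certain primary hairpins, had 988 ± 15.3 CPM in mimic and 840 ± 6.06 CPM in control libraries (SD, n = 3 each). The cap-binding subunit gene Ncbp2 and Srsf3, a splicing factor that helps recruit Drosha in human cells, had log2 changes of 0.23 and 0.17. Mettl3, the catalytic subunit of the m6A writer, had a log2 change of -0.15 (adjusted p = 0.0411, edgeR), a call lost in 7 of 14 alternatives: DESeq2 (adjusted p = 0.183), no filter (0.0634), limma (0.053 and 0.0504), and without mimic library 1 (0.176), mimic library 2 (0.136) or control library 3 (log2 change -0.08, adjusted p = 0.301).

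Genes that edit, tail or break down microRNAs went both ways, with 8 of 18 risen and 4 fallen, or 5 and 7 with total counts only. The shares fallen were near those of all genes, 24.8% and 32.3%, and the shares risen stood beside 24.3% and 17%. Trim71, an RNA-binding protein known from let-7 biology, had 3.41, 3.65 and 3.86 CPM in mimic libraries and 1.63, 1.84 and 1.75 CPM in control libraries. Its rise of 2.09-fold (log2 change 1.07 ± 0.15 SE, adjusted p = 5.42e-07, edgeR) was the largest of the 91 genes, and its 3' UTR holds a 7mer-m8 site. On log2(FPKM + 1), which shrinks changes of low genes, it was 0.20 (adjusted p = 0.00156, limma). Zc3h12a, which encodes an endoribonuclease, had a log2 change of 0.38. Lin28b, which blocks let-7 maturation and has 2 sites in its 3' UTR, had 5.25, 5.42 and 7.27 CPM in mimic libraries and 4.78, 4.85 and 4.46 CPM in control libraries. Mimic library 3 decided its call, since the log2 change of 0.36 was 0.19 without it (adjusted p = 0.214, edgeR), and the call was also lost without control library 3 (adjusted p = 0.0538), with DESeq2 (0.0683) and with limma (0.152 and 0.164). The editing enzyme gene Adarb1, with 2 sites, fell to 21.5 ± 0.787 CPM in mimic libraries, against 27.4 ± 1.22 CPM in control libraries (SD, n = 3 each). Tent2, which adds adenines to microRNA ends, and Tut7, which adds uridines, had log2 changes of -0.18 and -0.13. The call of Tut7 was lost without control library 2 (adjusted p = 0.0696, edgeR), with DESeq2 (0.101) and with limma (0.0523 and 0.0591).

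Among partners of decapping and silencing 11 of 24 rose and 4 fell, beside 24.3% and 24.8% of all genes. Scaled by total counts only, 5 rose and 5 fell, beside 17% and 32.3%, and the share risen was near that of all genes. The decapping enzyme gene Dcp2, whose 3' UTR holds 5 sites of 7 bases or more, had 32.4, 32.4 and 32.0 CPM in mimic libraries and 42.9, 43.7 and 44.4 CPM in control libraries (log2 change -0.44 ± 0.04 SE, adjusted p = 1.53e-10, edgeR). Lsm14a, a protein of processing bodies, and the helicase gene Mov10, which hold none, had log2 changes of -0.34 and -0.31. The poly(A)-binding protein genes Pabpc4 and Pabpc1 rose (log2 changes 0.44 and 0.24), as did Fxr1, a relative of the fragile X protein gene (0.25).

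Transcripts that host microRNAs were also counted, with 4 of 17 tested genes risen and 7 fallen, or 2 and 11 with total counts only. The shares risen were near those of all genes, 24.3% and 17%, and the shares fallen stood beside 24.8% and 32.3%. Mir22hg had 12.3, 10.7 and 10.4 CPM in mimic libraries and 7.54, 7.46 and 8.59 CPM in control libraries (log2 change 0.49 ± 0.09 SE, adjusted p = 1.94e-05, edgeR). Mir17hg, the primary transcript of the miR-17 cluster, had a log2 change of 0.21. Its call was lost with total counts only (adjusted p = 0.0516), without mimic library 2 (0.0952) or control library 1 (0.0508), and with limma (0.0954 and 0.0908). Copz1, a coat protein gene with a microRNA in an intron, had a log2 change of 0.24. Mcm7, Evl and Ctdsp2, whose introns also host microRNAs, had log2 changes of -0.19, -0.18 and -0.17.

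**Figure D5:**
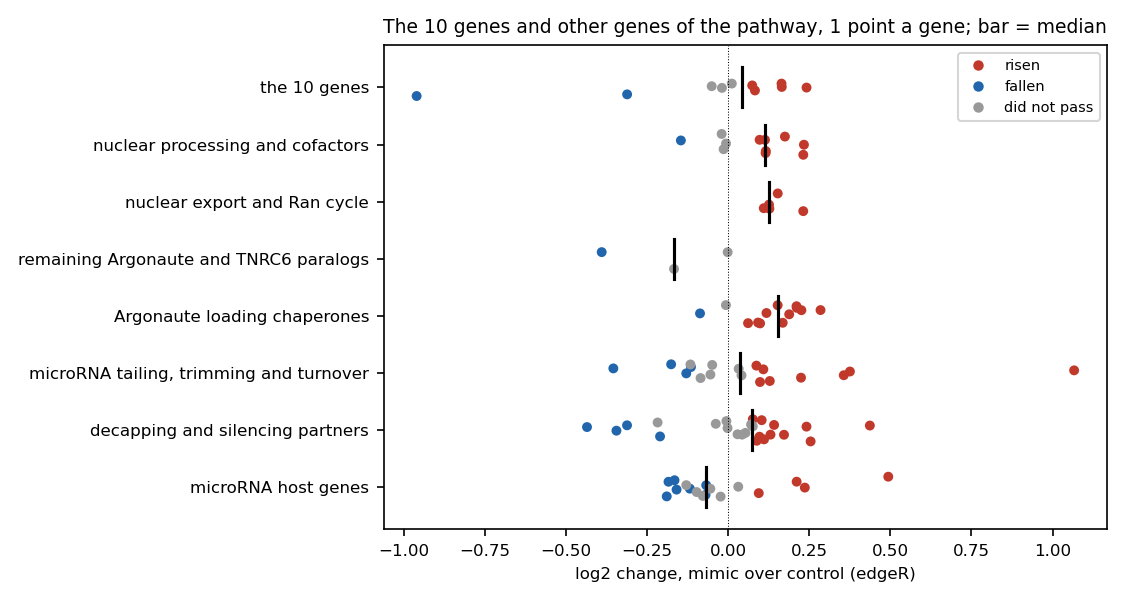
Log2 change (mimic over control, edgeR, horizontal axis) of the 10 genes and of the 7 lists of other pathway genes, 1 point a gene, coloured by call, with a bar at each median. The medians lie between -0.17 for the 3 paralogs and 0.15 for the loading chaperones, and Trim71 is the point at 1.07.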

How the data were processed

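The 6 libraries, 3 mimic and 3 control, were grouped by their titles. Per the labels' protocols, mRNA was captured on beads and made into directional libraries, read from both ends. HISAT2, DESeq2 and GRCm39 are named in the submitters' processing notes without roles. No source used here gives the tool, strand setting or annotation behind the counting. The authors deposited whole-number read counts for 24794 genes and FPKM values for 24494.

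Counts went into edgeR's quasi-likelihood test (version 4.0.16, R 4.3.3, with filterByExpr, TMM, glmQLFit, glmQLFTest, Benjamini-Hochberg over 13779 genes). The SE is the log2 change divided by the square root of F. The common biological coefficient of variation was 2.02%. Libraries of a group differed by more than sampling noise (mean chi-square per gene 1.85 to 2.23). Shares and ratios used FPKM and exact permutation tests (scipy 1.17.1). Alternatives used limma 3.58.1, DESeq2 1.42.0, other scalings, filters and left-out libraries. The fit was tested on simulated counts with known changes. It recovered 64.5% of 62 genes changed 1.2-fold, 90.1% of 71 changed 1.5-fold and 95.5% of 67 changed 2-fold. Of 13441 unchanged genes 13 were called. The site search was tested on made-up sequences of known class.

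The 10 genes and the lists were chosen with earlier results of these data known. Named genes are the 10, their paralogs, and from each other list up to 3 called genes a direction with the largest change at a mean of at least 2 CPM.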

Additional observations from a re-analysis of the deposited data

How the results depend on the processing

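The count of genes fallen among the 10 was 2 in every alternative but total counts only, where it was 3, and the count risen was between 4 and 5 with any library left out. With total counts only, 3 of the 10 rose, their median log2 change was -0.0139, and 29 other pathway genes rose and 29 fell. With limma on log2(FPKM + 1) and log2(FPKM + 0.1), 1 of the 10 rose under each, their median log2 changes were 0.0078 and 0.0073, and 27 and 28 other pathway genes rose. The cause was not tested. The calls of Prkra, Ago1 and Tarbp2 held in all 14 alternatives, and an adjusted p under 0.01 left 4 risen and 2 fallen. Every share and ratio kept its direction without any single library, with CPM in place of FPKM and, where it could be formed, with the 10 genes alone. With any library left out the difference was between -0.16 and -0.09 for the Dgcr8 to Drosha ratio, 3.507 and 4.605 points for the Ago2 share, -5.02 and -3.71 for the Ago1 share. The replicate number as a block gave 5 risen and 2 fallen, as without it. Deviations of same-numbered libraries correlated at 0.0354 to 0.0573, too little to treat the numbers as pairs, though each library correlated best with its own number. With 3 libraries a group no permutation p can go below 0.1.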

Other observations

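Prkra's genomic neighbours were looked at after the values were seen. Of the genes within 100 kb of it on GRCm38, 2 were tested. Fkbp7, a prolyl isomerase gene 15028 bases away, averaged 9.46 CPM in mimic and 9.84 CPM in control libraries and did not pass (log2 change -0.06, adjusted p = 0.579, edgeR). Plekha3, 27265 bases away, averaged 67.8 CPM in mimic and 80.8 CPM in control libraries, a fall of 0.25 on the log2 scale (adjusted p = 1.51e-07, edgeR).

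Matches to the seed in coding sequences were counted in the same way. Dicer1, Ago2 and Tnrc6a each hold 2 sites of 7 bases or more there, and neither Ago1 nor Ago3 holds one. Of 11559 genes 1.8% have an 8mer and 11.04% a 7mer-m8 as the best coding match, with median log2 changes of -0.06 and -0.05, against 0.01 for genes with none.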
